A study of Rattus norvegicus with 2 samples.

Results

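The dual-specificity phosphatase and Sprouty genes that restrain mitogen-activated protein (MAP) kinase signaling were read in cervical lymph nodes of rats with and without acute restraint stress. They were found by name, as every probe other than a control whose gene name is Dusp1, Dusp2, Dusp4, Dusp5, Dusp6, Dusp10, Dusp14, Dusp16, Spry2, or Spry4. This gave 10 genes of the 36174 gene names on the array, carried by 12 probes in 22 spots per array. The no-stress control group (C) and the restraint stress group (RS30) both consisted of male Sprague-Dawley rats aged 10 to 12 weeks, and each group was measured on 1 array. RS30 rats were tied by the legs to a board, lying on the back, for 30 min, whereas C rats were not restrained. The restraint time is that of the study's methods, since the labels name restraint stress without a time. Rats were anesthetized with halothane and killed with pentobarbital, and how many rats gave the RNA of an array was not given in the sources used here. With 1 array per group a difference has no replicate check, so no test was run. The error printed after each log2 difference combines the errors that the scanner software reports for the single spots on both arrays. Spots of a probe were treated as independent, so this spot error shrinks as a probe has more spots. It covers the measurement of the spots and not the spread between rats.

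MAP kinases (ERK, JNK, and p38) are switched on by phosphorylation of a threonine and a tyrosine, and dual-specificity phosphatases remove both phosphates and switch them off. Several of these phosphatases, together with the Sprouty proteins, which damp signaling from growth factor receptors to ERK, are themselves transcribed in response to the kinases and so form negative feedback. In lymphoid tissue several of them are known as rapidly induced genes of activated lymphocytes and macrophages. In whole-node RNA, fewer cells of a type and less RNA per cell cannot be told apart.

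Dusp1 and Dusp5 were the genes of this group that stood 2-fold or more higher on the RS30 array, and their promoters are shown for that reason alone. The arrays measured RNA, and binding of factors to these letters was not measured. The sequences are from RefSeq (rat build GRCr8), cover the 250 bases before the annotated start, and are on the forward strand at chr10:17184603-17184852 for Dusp1 and chr1:262543524-262543773 for Dusp5. Capitals mark the letters of a cyclic AMP response element (CRE, TGACGTCA) and of the CRE core (TGACG, read on both strands) in Dusp1, and the CArG boxes bound by serum response factor and a CRE core in Dusp5. The array probe of Dusp1 follows them because the largest difference of the group rests on this 1 probe.
Dusp1 promoter: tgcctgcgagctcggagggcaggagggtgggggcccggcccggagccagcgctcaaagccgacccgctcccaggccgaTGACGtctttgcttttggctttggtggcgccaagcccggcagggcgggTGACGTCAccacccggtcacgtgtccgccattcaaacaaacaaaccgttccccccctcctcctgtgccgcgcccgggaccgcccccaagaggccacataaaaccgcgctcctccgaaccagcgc
Dusp5 promoter: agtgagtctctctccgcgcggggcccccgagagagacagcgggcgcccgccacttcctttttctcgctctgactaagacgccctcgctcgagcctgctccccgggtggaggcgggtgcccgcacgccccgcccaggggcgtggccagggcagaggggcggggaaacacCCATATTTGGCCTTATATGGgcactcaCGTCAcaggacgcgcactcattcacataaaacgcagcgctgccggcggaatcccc
Dusp1 array probe: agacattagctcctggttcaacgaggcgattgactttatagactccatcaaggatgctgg

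Intensities are background-subtracted Cy3 signals of the scanner software, and differences are RS30 minus C after each array's 75th percentile was subtracted on the log2 scale. Where intensities are given as a pair, C comes first. A gene was screened when its brightest probe was marked as well above background on at least 1 array, which held for 21096 genes. Of the 10 phosphatase and Sprouty genes, 9 were well above background on both arrays and 1, Dusp4, on neither. Of these 9 genes, 2 were higher by 2-fold or more, while 3.46% of all screened genes were. None (0) was lower by 2-fold or more, compared with 4.28% of the screened genes. All 9 stood above 0, whereas 52.1% of the screened genes were higher on the RS30 array by any size. The median log2 difference over the 9 genes was 0.43 (1.34-fold), compared with 0.016 over all screened genes. Apart from Dusp1 and Dusp5, the other 7 lay between 0.26 and 0.70 (1.20- to 1.63-fold). The genes were chosen with earlier results of these data known, so these comparisons describe the set and do not test it.

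**Figure D1:**
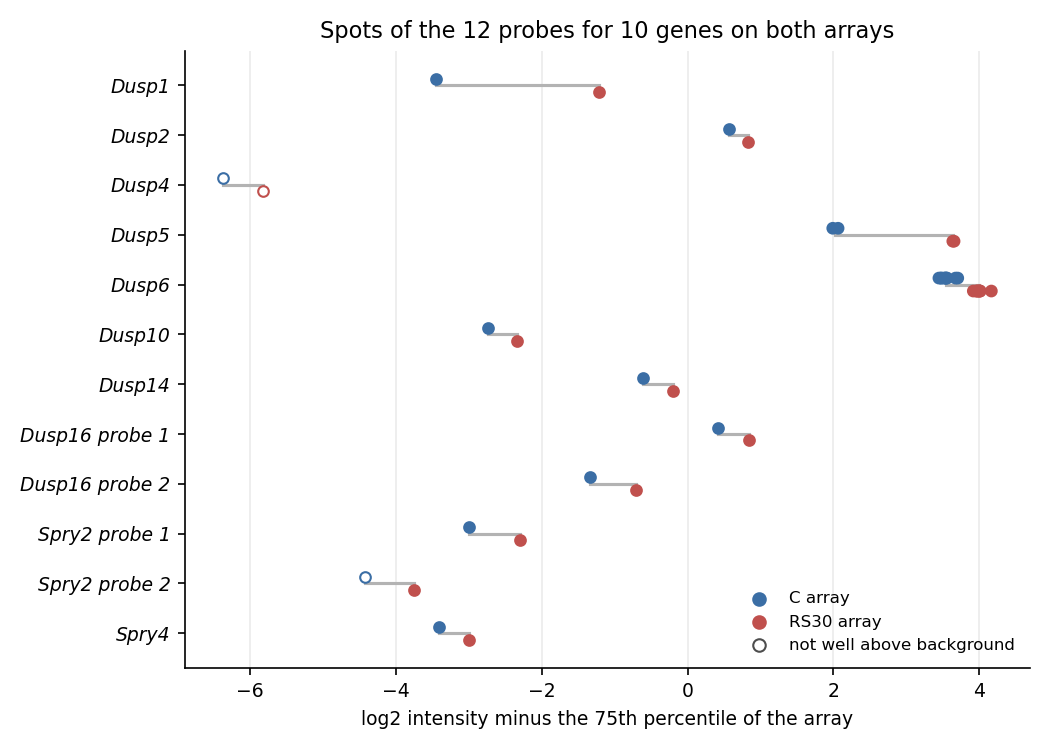
Every spot used for the 12 probes on the C array (blue) and the RS30 array (red), on the normalized log2 scale, with a gray line joining the probe averages. Open circles are spots not well above background. Dusp1 went from -3.44 to -1.21, whereas both spots of Dusp4 are open. The several spots of Dusp5 and of Dusp6 are copies on 1 array per group.

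Among the inducible nuclear phosphatases, Dusp1 (NM_053769) encodes MKP-1, which inactivates p38, JNK, and ERK and is transcribed within minutes of many stress signals. Its probe was printed in 1 spot, which read 17.4 (C) and 76.4 (RS30). Both spots were well above background, the C spot at a raw mean signal of 51.7 over a local background of 22 and the RS30 spot at 107 over 21. The log2 difference was 2.24 ± 0.28 (spot error), or 4.71-fold, and 1.96 spot errors on either side give 1.69 to 2.79. It ranked 134 among the 21086 screened genes with a value, so that 0.635% of them were as high. Among screened genes in the same quartile of signal, 3.79% were 2-fold or more higher. With the normexp background correction, which adds an offset of 50 to the signals, the difference was 0.87 and no longer 2-fold.

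The position listed for the Dusp1 probe, chromosome 10 from 16944342 to 16944661 on the forward strand, spans 320 bases for a probe of 60 bases, as for a probe that crosses an intron. The header of the files names the build rn4, as it does for each probe position given here.

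Dusp5 (NM_133578) encodes a nuclear phosphatase specific for ERK. Its probe (chromosome 1, 259767436 to 259767495, forward strand) was printed in 2 spots. The C spots had intensities of 751 and 790, and the RS30 spots 2196 and 2222. The SD of the log2 intensity between spots was 0.052 (C) and 0.012 (RS30). These spots are copies on 1 array per group, so their spread is not that between rats. The log2 difference was 1.62 ± 0.14 (spot error), or 3.07-fold, and 1.38% of the screened genes were as high. Dusp5 lay in the brightest quartile of signal, where 1.52% of the screened genes were 2-fold or more higher. Over all alternatives its log2 difference stayed between 1.52 and 1.64.

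Dusp2 encodes PAC-1, a nuclear phosphatase known from activated T and B cells. Its probe (chromosome 3, 114839775 to 114839834, forward strand) read 279 (C) and 313 (RS30). The log2 difference of 0.26 was within 1.96 times its spot error of 0.20. Dusp4, which encodes the related MKP-2, was below the background call on both arrays, with intensities of 2.29 and 3.12 (chromosome 16, 61109868 to 61109927, reverse strand). The median of the negative control spots was 2.16 (C) and 1.95 (RS30), so that no fold is given for Dusp4.

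**Figure D2:**
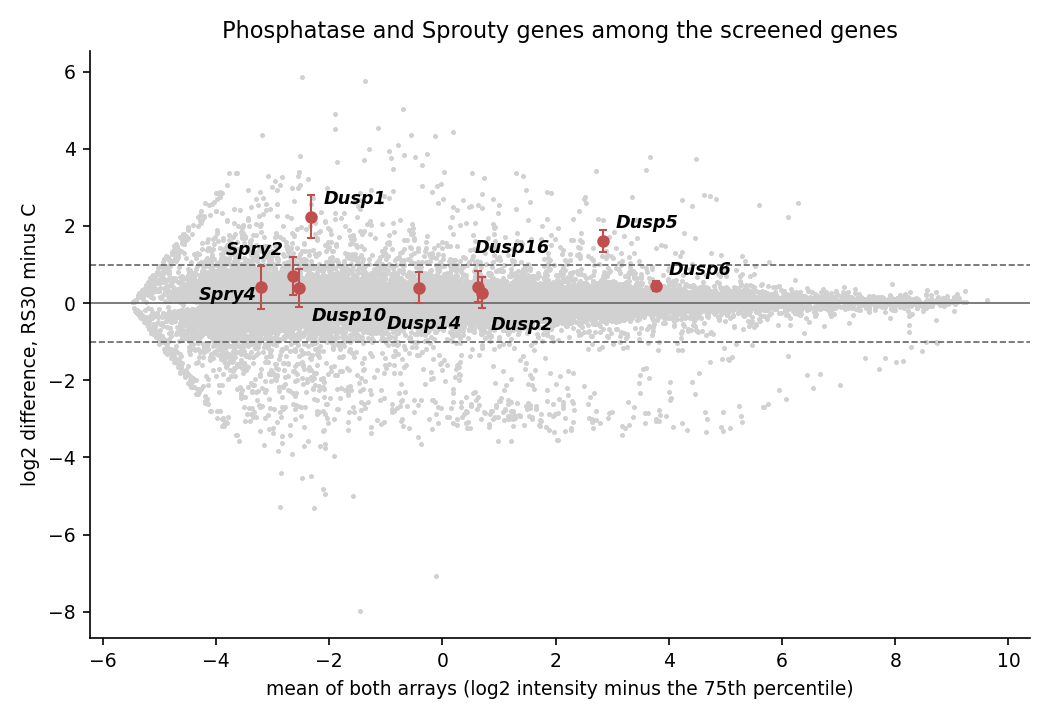
Log2 difference (RS30 minus C) against the mean normalized log2 signal of both arrays for all screened genes with a value (gray) and the 9 measured phosphatase and Sprouty genes (red, bars 1.96 spot errors). Dashed lines mark 2-fold; Dusp1 (2.24) and Dusp5 (1.62) lie above the upper line and the other 7 between 0.26 and 0.70.

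Dusp6 (NM_053883) encodes MKP-3, the cytoplasmic phosphatase of ERK. Its probe (chromosome 7, 36897369 to 36897428, forward strand) was printed in 10 spots, of which 10 were used in C and 9 in RS30. The C spots ranged from 2060 to 2464 with a median of 2192, and the RS30 spots ranged from 2668 to 3168 with a median of 2816. The SD of the log2 values of the spots was 0.083 (C) and 0.069 (RS30), again a spread of copies within an array. The log2 difference was 0.45 ± 0.066 (spot error), or 1.37-fold, and 11.4% of the screened genes were as high. Dusp6 was thus the gene of the group with the most spots and the smallest spot error, which falls with the number of spots. Its difference was under 2-fold.

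Dusp10 and Dusp16 encode MKP-5 and MKP-7, which act on JNK and p38. Dusp10 (chromosome 13, 100059143 to 100059202, forward strand) read 28.5 and 35.0. Its log2 difference of 0.40 lay within 1.96 times the spot error of 0.25. For Dusp16, 2 probes were present on the reverse strand of chromosome 4. The brighter (171620567 to 171620626) read 253 and 317, a difference of 0.43 ± 0.20. The second (171622865 to 171622924), at normalized log2 values of -1.33 and -0.70, differed by 0.63 ± 0.21. Both probes were higher on the RS30 array by more than 1.96 spot errors and by less than 2-fold.

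Dusp14 encodes MKP-6, a small phosphatase without the kinase-docking domain of the MAP kinase phosphatases, which is known as a brake on T cell receptor signaling. Its probe (chromosome 10, 72335935 to 72335994, reverse strand) read 124 (C) and 153 (RS30). The log2 difference of 0.40 was just within 1.96 times the spot error of 0.21.

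The Sprouty genes encode membrane-associated inhibitors of the path from receptor tyrosine kinases through Ras to ERK. The brighter probe of Spry2 (chromosome 15, 90009823 to 90009882, reverse strand) read 23.6 (C) and 35.9 (RS30). The log2 difference was 0.70 ± 0.25 (spot error), or 1.63-fold, and 6.26% of the screened genes were as high. The second probe (90008464 to 90008523) read 8.81 and 13.1, and only the RS30 spot was marked as well above background. Its log2 difference, taken against the dimmest C signal that still counted as above background, was 0.57 (1.48-fold). This lay within 1.96 times its spot error of 0.47. Spry4 (chromosome 18, 31532750 to 31532809, reverse strand) went from 17.9 to 22.1, and its difference of 0.41 was within 1.96 times the spot error of 0.29. Of the 9 measured genes, 5 were higher by more than 1.96 spot errors (Dusp1, Dusp5, Dusp6, Dusp16, and Spry2), compared with 11% of all screened genes, and Dusp2, Dusp10, Dusp14, and Spry4 were not. This count, too, is a description of genes chosen with earlier results known. Which genes it holds also depends on the processing. Without normalization Dusp16 differed by 0.33, within 1.96 times its spot error of 0.20. Scaled to the array median, Dusp14 differed by 0.43, more than 1.96 times its spot error of 0.21. With normexp, Spry2 (0.24) was within 1.96 times its spot error.

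Among the 12 probes, 10 were printed in 1 spot per array, so that a spread between spots could be seen for Dusp5 and Dusp6 alone. The plot of the alternatives shows how far each difference moved with the processing. With normexp, the differences of Spry2 and Dusp10 were 0.24 and 0.14, while Dusp5 remained past 2-fold. All 9 genes stayed above 0 under each of the 13 alternatives. The alternatives for dim probes could not move them, since these genes were above background on both arrays. The scalings other than quantile normalization shifted every gene alike.

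**Figure D3:**
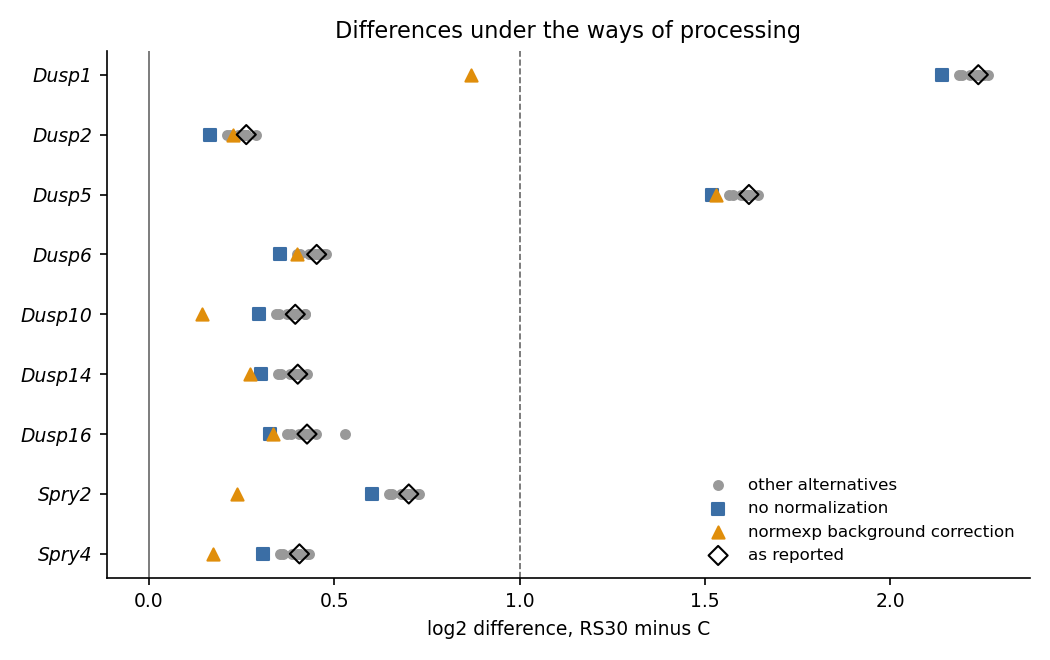
Log2 difference (RS30 minus C) of the 9 measured genes as reported (diamonds), without normalization (squares), with normexp background correction (triangles), and under the other alternatives (gray). The dashed line marks 2-fold; Dusp1 ranged from 0.87 to 2.26 and fell below the line with normexp, whereas Dusp5 ranged from 1.52 to 1.64.

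In the promoters, matches to a few motifs were counted as a description of the letters and not of bound factors. The RefSeq table held 33469 promoters of 300 bases, from 250 before to 50 after a start, and 12 of them belonged to 9 of the 10 genes (Dusp14 had 3 starts and Spry2 had 2). Dusp4 had no entry. A full CRE, the site of the cyclic AMP-responsive factor CREB, was present in 1.83% of all promoters and, within this group, in that of Dusp1, where it began 124 bases before the start. The CRE core overlaps the full CRE by design and was present in 21.2% of all promoters. Of the 12 promoters listed here, 6 held one, each from another gene (Dusp1, Dusp2, Dusp5, Dusp14, Dusp16, and Spry2). In Dusp1 a separate core began 172 bases before the start.

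CArG boxes were present in 1.64% of all promoters and, within this group, in that of Dusp5. It held 2 adjacent copies, CCATATTTGG and CCTTATATGG, that began 82 and 72 bases before the start, and 7 promoters of the table (0.0209%) held 2 or more. An AP-1 site (TGANTCA, both strands) was present in 7.33% of all promoters and in 1 promoter of Dusp14. The TATA box (TATAAA, gene strand) was in 8.80% and a palindromic glucocorticoid response element (GRE, AGAACA and its reverse complement 3 bases apart) in 0.0149%, and neither was found in these letters for the 9 genes. Of the 10268 screened genes with a promoter in the table, 385 (3.75%) were 2-fold or more higher, compared with 15 of 309 genes with a CRE (4.85%), 101 of 3240 genes with a CRE core (3.12%), and 9 of 144 genes with a CArG box (6.25%). The median log2 differences were 0.019, 0.053, 0.042, and 0.079, respectively, and no difference between these shares was tested. The counts include Dusp1 (CRE and CRE core) and Dusp5 (CArG box and CRE core) themselves.

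**Figure D4:**
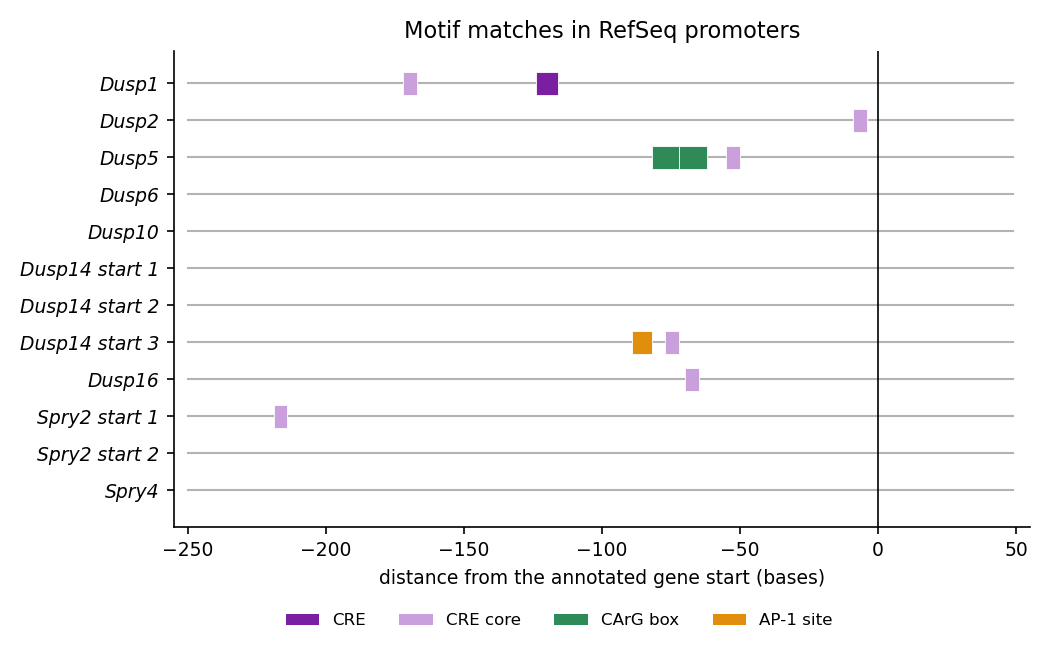
Positions of the motif matches, in bases from the annotated start, in the 12 promoters of 9 genes. The full CRE lies 124 bases before the start of Dusp1 and both CArG boxes begin 82 and 72 bases before that of Dusp5, whereas the promoters of Dusp6, Dusp10, and Spry4 hold none of the motifs searched.

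The wider family was then described by lists of genes. Together with the 10 genes, 30 Dusp, Spry, and Spred genes were on the array and 23 of them were screened. The 14 screened genes outside the group had a median log2 difference of -0.038, with 7 above 0. Of these, 2 were higher by 2-fold or more (Dusp8 and Spred3) and 0 were lower. Dusp8, a JNK and p38 phosphatase, read 24.1 and 47.6, higher by 1.08 ± 0.25 on the log2 scale. The ERK phosphatase Dusp7 read 156 and 147 (0.014). Its second probe was above background on the RS30 array only. Taken against the dimmest C signal above background, it differed by 0.76, within 1.96 times its spot error of 0.43. Dusp9 was below the background call on both arrays.

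The brighter probe of Spred3, which encodes a relative of the Sprouty proteins that blocks Raf activation, read 33.8 and 65.9, a difference of 1.06 ± 0.23. Its other probe was below the background call on both arrays. Spry1, another Sprouty gene, read 71.9 (C) and 61.9 (RS30) (-0.12, spot error 0.21). Of the 13 atypical phosphatases listed, 12 were on the array under that name and 8 were screened. They had a median of -0.13, from -0.26 for Dusp22 (1445 and 1127) to 0.46 for Dusp11 (587 and 754), and none was past 2-fold.

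The kinases that these proteins restrain were described in the same way. In the Ras-ERK cascade, 17 of 17 genes were screened, with a median of 0.057, 0 higher and 1 lower by 2-fold or more. The lower gene was Map2k1, which encodes the ERK kinase MEK1, at -2.33 (2722 and 505) on a probe that holds a run of at least 6 alternating A and G bases. Its other probe, without such a run, read 734 and 738 (0.11), so that the probes of this gene disagree. No probe of the 10 phosphatase and Sprouty genes holds such a run. In the p38 and JNK cascade, 15 of 17 genes were screened, with a median of 0.034 and 2 genes higher by 2-fold or more. These were Map3k8, the kinase Tpl2 that feeds the ERK path in macrophages, at 1.02 (897 and 1703, spot error 0.20), and Map2k3, a p38 kinase, just at the threshold (615 and 1148, spot error 0.14; second probe 0.84).

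Among 6 genes known as outputs of ERK, 5 were screened, with a median of 0.014, 2 higher and 1 lower by 2-fold or more. The receptor kinase gene Epha2 read 76.8 and 198, a difference of 1.46 ± 0.21. Phlda1 read 28.4 and 67.0, a difference of 1.34 ± 0.24. Epha4 was lower at -1.85 (47.6 and 12.3) on a probe with an alternating A and G run, and its other probe was not well above background. Ccnd1, which encodes cyclin D1, differed by 0.014 and the ERK-responsive factor gene Etv5 by -0.52 (482 and 315).

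**Figure D5:**
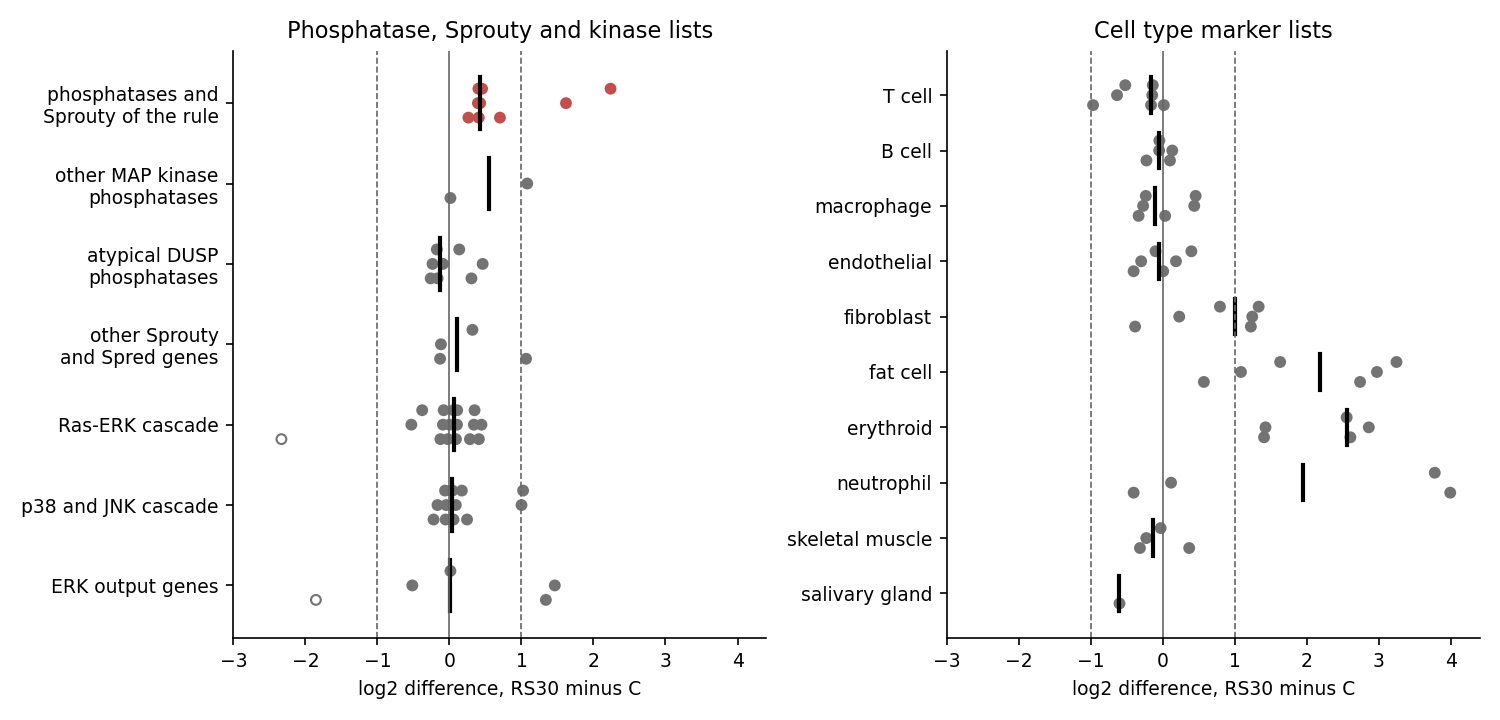
Log2 difference (RS30 minus C) of each screened gene in the phosphatase, Sprouty, and kinase lists (left) and the cell type marker lists (right), with black bars at the list medians and dashed lines at 2-fold. The phosphatase and Sprouty genes of the rule (red) have a median of 0.43. Open circles are Map2k1 and Epha4 on probes with alternating A and G bases. The medians for erythroid (2.55), fat cell (2.18), neutrophil (1.94), and fibroblast (1.01) markers are past 2-fold. The neutrophil markers split, with 2 of 4 past 2-fold and the others at 0.11 and -0.41. The fibroblast markers split as well, with 3 of 6 past 2-fold.

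Markers of the cells of a lymph node were present on both arrays. T cell markers were well above background in 7 of 7 genes, with a summed normalized signal of 165 (C) and 148 (RS30), where 1 is the 75th percentile of the array. B cell markers were so in 5 of the 5 genes on the array, with sums of 79.4 and 80.3. The macrophage sums were 19.7 and 17.2 over 6 genes, and the endothelial sums were 25.1 and 26.5 over 6 genes. Such sums weigh the brightest genes most. By single genes, 6 of the 7 T cell markers were lower, with log2 differences from -0.97 to 0.013. The B cell (2 higher, 3 lower), macrophage (3 and 3), and endothelial (3 and 3) markers split. The screened erythroid and fat cell markers, and some fibroblast and neutrophil markers, stood higher on the RS30 array beside the differences of Dusp1 and Dusp5. Erythroid markers summed to 51.7 and 310 (5 of 6 screened, 5 past 2-fold, Slc4a1 not above background), among them Hba1 (5953 and 33805). Fat cell markers summed to 33.8 and 89.1 (6 of 7 screened, 5 past 2-fold, Plin1 not above background), among them Cfd (5251 and 10400). Fibroblast markers summed to 69.1 and 153 (6 of 6 screened). The collagen genes Col1a1, Col1a2 (4821 and 10501), and Col3a1 were the 3 past 2-fold, whereas Dcn differed by 0.79, Pdgfrb by 0.23, and Pdgfra by -0.39. Neutrophil markers summed to 0.585 and 4.54 (4 of 6 screened, Elane and Camp not above background). Of these, S100a8 and S100a9 were past 2-fold, whereas Csf3r differed by 0.11 and Mmp8 by -0.41. All sums include the genes of a list that were on the array but not above background. Skeletal muscle markers summed to 0.855 and 0.924 (4 of 6 screened), and salivary gland markers to 0.133 and 0.105 (1 of 6 screened). The part of these cells in the differences of the phosphatase and Sprouty genes was not tested.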

How the data were processed

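Cervical lymph node RNA of 1 C and 1 RS30 array (Agilent SurePrint G3 Rat GE 8X60K, 1 color, 1 slide, 1 scan) was analyzed. The authors labeled the RNA with Cy3 and extracted spots with Agilent Feature Extraction 11.5.1.1, as the submitters' processing notes name it, and deposited spot intensity values that the software had background-subtracted within each array, with background and outlier flags (other columns). The authors also deposited a log2 table per probe. Its column medians were -3.509 (C) and -3.539 (RS30), and 100% of its 45598 values per array lay within 0.1 of the values computed here, so that it holds log2 intensity minus the 75th percentile.

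Control spots and outlier spots (489 and 660) were left out, the spots of a probe were averaged as log2 values, and each array was shifted by its 75th percentile over probes (intensity 189 and 176). A probe counted as well above background when over 50% of its spots were marked so (54.7% and 54.9% of probes); no spot other than a control was saturated (0). A gene took the value of its brightest probe over both arrays. A fold against a dim array is a lower bound, with the dim signal set to at least the array's lowest well-above-background signal (intensity 9.45 and 8.52). Such a bound does not allow for the spot error. The 2-fold threshold is that of the study's methods. The number of arrays limits the precision. The genes and the lists were chosen with earlier results of these data known. Named were all 10 genes, list genes past 2-fold or else the extremes of a list, a few list genes chosen after their values were seen (Dusp7, Spry1, Ccnd1, Etv5, and the named neutrophil and fibroblast markers), and the brightest marker of lists with a median past 2-fold. Steps were tested on simulated data, and 13 alternatives of scaling, background, probe summary, and filter were run. Tools were Python 3.11.15, numpy 2.4.6, pandas 2.3.3, matplotlib 3.10.9, R 4.3.3, and limma 3.58.1.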

Additional observations from a re-analysis of the deposited data

How the results depend on the processing

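Of 117 log2 differences of the 9 measured genes under the alternatives, 113 moved by less than their spot error, 4 moved by more, and 0 changed sign. Part of the 113 could not move, because the alternatives for dim probes leave these genes unchanged. With normexp, 1 gene (Dusp5) in place of 2 was higher by 2-fold or more; this was also where Dusp1 (0.87), Dusp10 (0.14), and Spry2 (0.24) moved, and an offset added to each signal shrinks the differences of dim probes by construction. Dusp6 moved without normalization (0.35), and Dusp4 had a value only when no background filter was used (0.54 ± 1.75). The count of higher genes was 2 in the other 12 alternatives, the count of lower genes was 0 in all 13, and the median over the genes ranged from 0.27 to 0.45.

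Over all screened genes, 730 were higher and 903 lower by 2-fold or more, compared with 234 and 378 with normexp, 2031 and 2148 of 36174 genes with no filter, 493 and 601 with genes above background on both arrays, and 674 and 541 with alternating A and G probes left out. The scalings shifted the all-gene median by at most 0.0995. No paired analysis was possible because there was 1 array per group, and leaving out a replicate would remove a group. Signal over background limits Dusp1, Dusp4, Dusp10, Spry2, and Spry4 most.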
